A study of Mus musculus with 12 samples.

Results

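The 9 genes described are immediate early genes, the first genes a cell transcribes when it receives a signal: Egr1, Egr2, Egr3, Nr4a1, Nr4a2, Nr4a3, Ier2, Ier3 and Myc. They were found by their symbols: every probe set assigned to exactly 1 of these symbols was taken, and the probe set with the highest mean over all arrays stood for the gene. This gave 18 probe sets of 45037 and 9 genes of the 12921 that passed a filter on low values. All 9 passed it, and 16 of their 18 probe sets did.

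Lung RNA was measured on 12 Affymetrix arrays, 3 for each of 4 groups of mice aged 8 to 12 weeks. Control mice were given phosphate-buffered saline. Ventilated mice spent 4 hours on a ventilator with breaths of 30 ml/kg, large enough to cause ventilator-induced lung injury. The rhPBEF group was given 20 µg of the protein per mouse into the trachea, in 1.5 µl of water per g of body weight, and the combined group was given both. Control and rhPBEF mice thus differed in the fluid named as well as in the protein, and these cannot be told apart. rhPBEF is recombinant human pre-B-cell colony-enhancing factor, the protein of the NAMPT gene, which acts as an enzyme of NAD synthesis inside cells and as a cytokine-like factor outside them. No group ventilated with small breaths is among the 4, and the labels do not state the time from instillation to tissue collection, the strain and the sex. They number the samples without saying that each is a separate mouse. A p-value here sets a difference against the spread of arrays within groups, which may be technical. That spread was estimated over all 4 groups, so the ventilated arrays enter the standard error of every comparison.

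The immediate early genes are kept ready for transcription and are switched on by factors that already sit in the cell, chiefly serum response factor with its partners, CREB and NF-kB, so that they need no new protein synthesis. EGR proteins are zinc finger transcription factors, NR4A proteins are orphan nuclear receptors that are active without a ligand, and MYC drives growth and ribosome production. IER2 is a small nuclear protein, and IER3 is a stress protein that limits cell death and is a known target of NF-kB. In lung they are known to respond to stretch, growth factors and inflammatory signals, and their messages are short-lived.

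The promoter windows of 5 of the 9 genes were matched in the RefSeq promoter table (mouse build GRCm38.p6), and they are shown so that the motifs near each start can be read beside that gene's levels. Each window covers the 250 bases before a transcription start, 5′ to 3′ on the gene's own strand. Capitals mark every match, on either strand, to the motifs searched: the CArG box bound by serum response factor, the cyclic AMP response element half-site TGACG, the full element TGACGTCA, the NF-kB site, the E-box CACGTG and the TATA box TATAAA. The windows lie at chr10:67537619-67537868 (plus strand, Egr2), chr15:101266596-101266845 (plus strand, Nr4a1), chr2:57124004-57124253 (minus strand, Nr4a2), chr4:48045055-48045304 (plus strand, Nr4a3) and chr17:35821463-35821712 (plus strand, Ier3). The Egr2 window is 1 of 5 that the table lists for the gene. No windows are shown for Egr1, Egr3, Ier2 and Myc.
Egr2: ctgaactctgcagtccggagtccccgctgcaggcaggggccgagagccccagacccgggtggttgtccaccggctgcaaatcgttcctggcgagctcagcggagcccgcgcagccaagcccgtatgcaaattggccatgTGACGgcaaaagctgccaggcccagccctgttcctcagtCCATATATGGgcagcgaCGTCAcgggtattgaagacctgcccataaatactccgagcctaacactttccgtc
Nr4a1: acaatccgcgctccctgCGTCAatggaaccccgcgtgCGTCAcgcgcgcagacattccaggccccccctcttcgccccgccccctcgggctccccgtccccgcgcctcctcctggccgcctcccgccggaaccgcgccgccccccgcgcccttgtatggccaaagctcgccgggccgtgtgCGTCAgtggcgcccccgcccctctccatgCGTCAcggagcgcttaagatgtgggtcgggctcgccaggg
Nr4a2: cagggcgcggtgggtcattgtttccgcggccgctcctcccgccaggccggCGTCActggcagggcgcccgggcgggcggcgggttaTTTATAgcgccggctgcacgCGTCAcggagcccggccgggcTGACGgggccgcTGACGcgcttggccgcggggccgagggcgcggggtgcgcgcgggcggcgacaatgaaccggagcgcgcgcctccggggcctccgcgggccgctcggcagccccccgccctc
Nr4a3: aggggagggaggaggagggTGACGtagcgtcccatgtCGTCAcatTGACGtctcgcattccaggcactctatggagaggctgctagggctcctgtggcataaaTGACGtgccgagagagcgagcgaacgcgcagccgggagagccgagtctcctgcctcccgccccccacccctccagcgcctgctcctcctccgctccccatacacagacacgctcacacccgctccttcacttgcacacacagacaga
Ier3: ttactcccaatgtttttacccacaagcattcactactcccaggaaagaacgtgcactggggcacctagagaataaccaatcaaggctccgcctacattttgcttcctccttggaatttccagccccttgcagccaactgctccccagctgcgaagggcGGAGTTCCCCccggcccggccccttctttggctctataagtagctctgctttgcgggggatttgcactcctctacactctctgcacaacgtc

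The TGACG half-site occurred 4 times in each of the 3 Nr4a windows and 2 times in that of Egr2. It was absent from the Ier3 window. Of 32536 windows of the same length, 17.9% held the half-site at least 1 time and 0.138% at least 4 times. The Egr2 window held a CArG box, from base 72 to base 63 before the start, a motif found in 1.48% of windows. The Ier3 window held an NF-kB site, from base 92 to base 83 before the start (3.92% of windows), and the Nr4a2 window held TATAAA on the opposite strand (12.3%). TGACGTCA (1.56% of windows) and CACGTG (6.04%) were in none of the 5. No 2 matches overlapped. These matches describe the letters of each window and show no binding. A link between the motifs and the levels was not tested.

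All values below are log2 levels, so a difference of 1 is a doubling. Array medians ran from 6.997 to 7.07. The 10 lung genes checked, among them the surfactant genes Sftpc and Sftpb and the club cell gene Scgb1a1, had levels between 12.41 and 15.02 on every array. Ventilation replicate 2 stood apart: it was the highest of the 12 arrays for Egr1, Egr2, Nr4a1, Nr4a2, Nr4a3 and Myc, and the mean of 12 heat shock genes lay 1.81 above the control mean there, against -1.61 to 0.23 on the other 11 arrays. A further pair of arrays, ventilation replicate 3 and rhPBEF replicate 2, carried skeletal muscle messages, with means of 5 muscle genes 2.81 and 3.89 above control. Signal ratios of the 3′ and 5′ probe sets, a sign of RNA quality, spanned -0.11 to 0.09 for Gapdh and 0.35 to 0.54 for b-Actin over all arrays. Because whole lung was measured, more cells of a type and more message per cell cannot be told apart.

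Egr1 encodes a zinc finger factor that is switched on by most growth and stress signals. Its level was 11.77, 10.58 and 10.73 in the control arrays and 11.10, 13.59 and 11.91 in the ventilated ones. It was 12.32, 11.87 and 11.53 after rhPBEF and 12.95, 11.86 and 12.42 after both. All 3 arrays of the combined group lay above every control array, while the ventilated and the rhPBEF groups overlapped the control group through control replicate 1. The difference from control was 0.88 (SE 0.55, adjusted p = 0.425) after rhPBEF, 1.17 (SE 0.55, adjusted p = 0.337) after ventilation and 1.39 (SE 0.55, adjusted p = 0.132) after both. None of these passed the threshold of 0.05. The ventilation difference was 0.48 (SE 0.42, adjusted p = 0.708) without ventilation replicate 2. The group means ran from control (11.03) through rhPBEF (11.90) and ventilation (12.20) to both (12.41), and no 2 neighbours in that order differed beyond their spread.

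Egr2, a relative of Egr1 known for its part in myelination and in lymphocyte and macrophage regulation, was the member that separated best from control. Its level was 6.96, 6.03 and 6.21 in control, 7.38, 9.20 and 7.76 after ventilation, 8.17, 7.36 and 7.79 after rhPBEF and 8.32, 7.93 and 7.60 after both. Every treated array was above every control array, and the 3 treated groups overlapped one another. After both treatments Egr2 rose 2.94-fold (log2 difference 1.56, SE 0.43, adjusted p = 0.0471), the only member and comparison among those made here to pass the threshold. After rhPBEF alone it was 2.60-fold above control (1.38, SE 0.43, adjusted p = 0.142), and after ventilation alone the difference was 1.72 (SE 0.43, adjusted p = 0.138). The call rested on every control array and most others: the adjusted p was 0.0808, 0.144 and 0.130 without control replicates 1, 2 and 3, 0.187 and 0.126 without combined replicates 1 and 2, 0.0505 without ventilation replicate 3, and 0.0587, 0.0534 and 0.0610 without rhPBEF replicates 1, 2 and 3. It was 0.012 without ventilation replicate 2. With no filter on low values it was 0.0561, with every probe set tested 0.0564 and with the replicate number as a block 0.0569. Its mean level lay at the 57.5th percentile of probe sets, so a filter at the 60th percentile left it out. A second Egr2 probe set showed the same picture, at 5.79 to 6.64 in control and 7.07 to 8.99 on the 9 treated arrays, with differences of 1.35, 1.79 and 1.61 after rhPBEF, ventilation and both.

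Egr3, another zinc finger factor of the family, gave 2 different pictures by probe set. The probe set with the higher mean stayed between 7.45 and 7.75 on all 12 arrays, with differences of 0.08, 0.11 and 0.08 from control after rhPBEF, ventilation and both. The other had 6.69, 5.62 and 4.92 in control, 6.44, 9.70 and 6.48 after ventilation, 6.44, 6.16 and 5.94 after rhPBEF, and 7.76, 6.84 and 6.91 after both. On it the combined group lay wholly above control, and ventilation replicate 2 was the highest array by a wide margin. Its differences were 0.43 after rhPBEF (SE 0.75, adjusted p = 0.801), 1.80 after ventilation (adjusted p = 0.291) and 1.43 after both (adjusted p = 0.244). This reading was added after the values of both probe sets were seen.

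**Figure D1:**
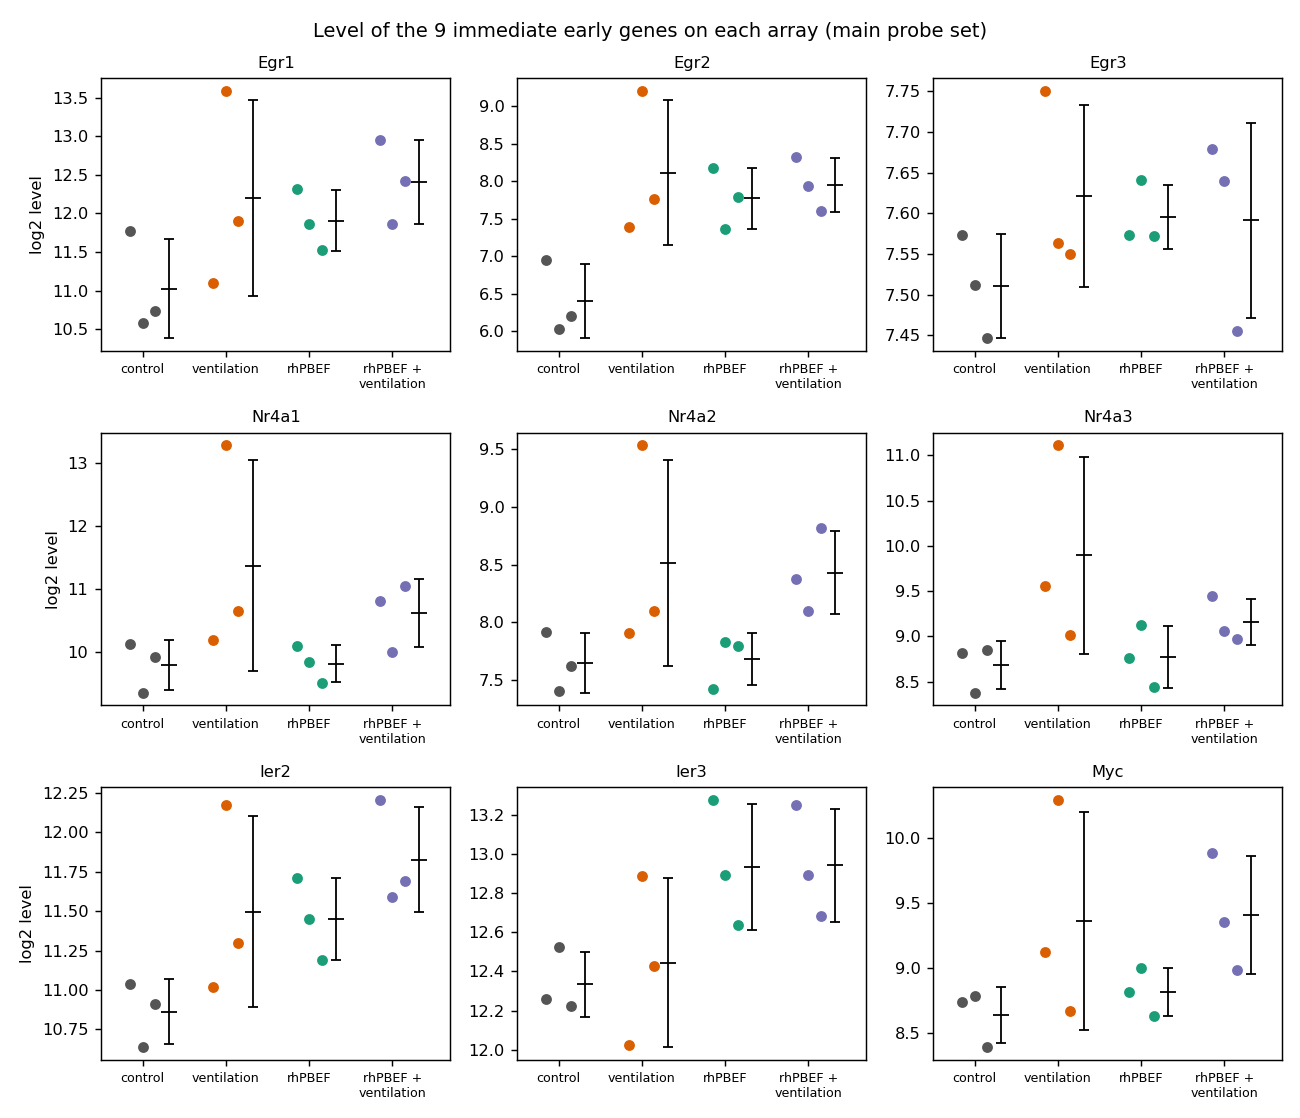
Log2 level of each of the 9 genes on every array, main probe set, in the 4 groups; points are arrays, and the bar beside each group is the mean with SD (n = 3), with a separate axis range for each gene. The ventilation group is spread widely by its second replicate, which reads 13.59 for Egr1 and 13.28 for Nr4a1, while Egr3 stays between 7.45 and 7.75.

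Nr4a1 encodes Nur77, an orphan receptor induced in immune, endothelial and muscle cells. Its level was 10.12, 9.35 and 9.92 in control and 10.10, 9.84 and 9.51 after rhPBEF, so these groups overlapped fully. Ventilated arrays read 10.18, 13.28 and 10.64, all above control but with replicate 2 standing 2.24 above the next highest array. Arrays of the combined group read 10.80, 10.004 and 11.04. The rhPBEF group stood 0.02 from control (SE 0.64, adjusted p = 0.991), the ventilated group 1.57 (SE 0.64, adjusted p = 0.287) and the combined group 0.82 (SE 0.64, adjusted p = 0.439). Without ventilation replicate 2 the ventilation difference was 0.62 (SE 0.32, adjusted p = 0.520).

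Nr4a2 encodes Nurr1, best known from dopamine neurons and also induced in macrophages. Its level was 7.92, 7.40 and 7.62 in control, 7.91, 9.54 and 8.10 after ventilation, 7.43, 7.83 and 7.79 after rhPBEF, and 8.38, 8.10 and 8.82 after both. The combined group lay wholly above both the control and the rhPBEF groups. Differences from control were 0.03, 0.87 and 0.78 after rhPBEF, ventilation and both (SE 0.36 each, adjusted p = 0.972, 0.291 and 0.186). Leaving out ventilation replicate 2 gave a ventilation difference of 0.36 (adjusted p = 0.582), and the combined difference then passed (adjusted p = 0.0299). The gene has 6 probe sets, 5 of them above the filter. Besides the main one, 3 of these had the combined group 0.45 to 0.71 above control and the rhPBEF group 0.02 to 0.04 above it, while the fifth was flat, at 6.81 to 7.05 on every array.

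Nr4a3 encodes Nor1, the last receptor of the family. Its level was 8.82, 8.37 and 8.85 in control, 9.56, 11.11 and 9.01 after ventilation, 8.76, 9.12 and 8.44 after rhPBEF, and 9.45, 9.05 and 8.97 after both. Ventilated and combined arrays all lay above control, and rhPBEF arrays did not. Differences from control were 0.09, 1.21 and 0.48 (SE 0.42 each, adjusted p = 0.936, 0.235 and 0.4996). Without ventilation replicate 2 the ventilation difference was 0.60 (adjusted p = 0.417). A second probe set of Nr4a3 read 7.85 to 8.24 on all arrays. Its ventilated arrays (8.24, 8.22 and 8.04) also lay above every control array, but the difference was only 0.17. Its combined group stood 0.0028 from control and overlapped it.

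**Figure D2:**
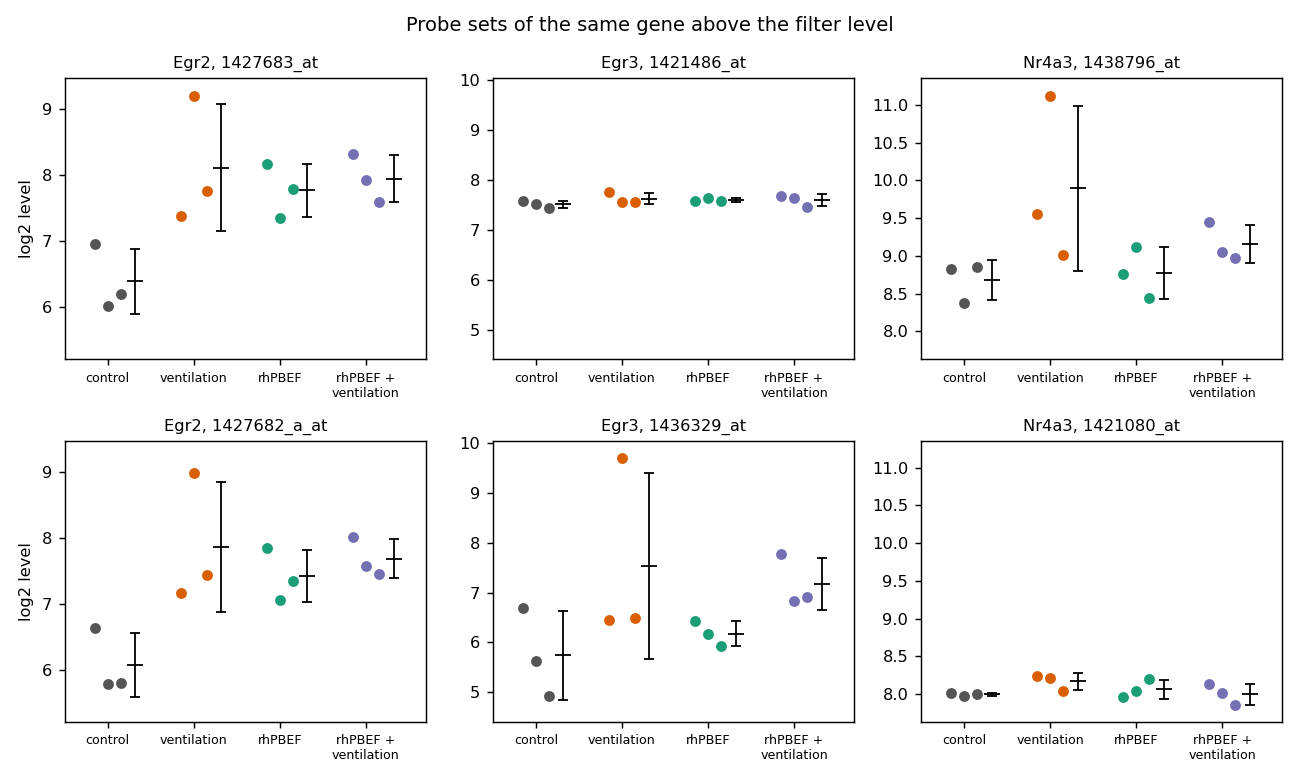
Log2 level on each array for the main probe set (upper row) and the next probe set (lower row) of Egr2, Egr3 and Nr4a3, with the same axis range within a gene; points are arrays and bars are the mean with SD (n = 3). The Egr2 probe sets show the same pattern, whereas only 1 probe set of Egr3 and of Nr4a3 varies widely between arrays, up to 9.70 and 11.11.

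Ier2 encodes a small nuclear protein. Its level was 11.04, 10.64 and 10.91 in control, 11.02, 12.18 and 11.30 after ventilation, 11.71, 11.45 and 11.19 after rhPBEF, and 12.21, 11.59 and 11.69 after both. The rhPBEF and combined arrays all lay above control, and ventilation replicate 1 fell within the control range. Differences from control were 0.59 after rhPBEF (SE 0.27, adjusted p = 0.283), 0.63 after ventilation (SE 0.27, adjusted p = 0.299) and 0.97 after both (SE 0.27, adjusted p = 0.051). The ventilation difference was 0.29 (adjusted p = 0.634) without ventilation replicate 2. The combined difference passed without ventilation replicate 1 (adjusted p = 0.0428), ventilation replicate 2 (0.0151) or combined replicate 3 (0.044).

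Ier3, the stress protein gene, had a level of 12.26, 12.53 and 12.22 in control and 12.02, 12.88 and 12.43 after ventilation. It was 13.28, 12.89 and 12.63 after rhPBEF and 13.25, 12.89 and 12.68 after both. The rhPBEF and combined groups gave nearly the same values, all above control, and the ventilated group lay across the control range. Differences from control were 0.60 after rhPBEF (SE 0.23, adjusted p = 0.204), 0.11 after ventilation (SE 0.23, adjusted p = 0.830) and 0.61 after both (SE 0.23, adjusted p = 0.115). The ventilation difference turned to -0.11 without ventilation replicate 2. Averaged over ventilation status, rhPBEF arrays were 0.55 above the others (SE 0.16, adjusted p = 0.0769), which passed without ventilation replicate 2 (0.66, adjusted p = 0.0351) and without combined replicate 3 (0.61, adjusted p = 0.0404).

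Myc, the growth regulator, had a level of 8.74, 8.78 and 8.39 in control, 9.12, 10.29 and 8.67 after ventilation, 8.82, 8.997 and 8.63 after rhPBEF, and 9.89, 9.36 and 8.98 after both. The combined group lay wholly above control. The ventilated and rhPBEF groups overlapped it. Differences from control were 0.18, 0.73 and 0.77 after rhPBEF, ventilation and both (SE 0.35 each, adjusted p = 0.831, 0.350 and 0.182). Without ventilation replicate 2 the ventilation difference was 0.26 (adjusted p = 0.732) and the combined difference passed (0.77, adjusted p = 0.0446).

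Across the 9 genes, limma called 0 members for rhPBEF against control, where 1.22% of the 12921 genes were called, and 0 for ventilation against control, where 0.00774% were. It called 1 member, Egr2, for both treatments against control, where 8.79% of genes were. At an unadjusted p below 0.05 the members numbered 2, 5 and 4 in these comparisons, beside 18.3%, 15.5% and 27.5% of all genes. All 9 differences from control were above 0 in each comparison, with medians of 0.18, 0.87 and 0.78, whereas the medians of all genes were -0.07, -0.04 and -0.06. Leaving out ventilation replicate 2 gave a ventilation median of 0.36, with 8 of 9 members above 0 and Ier3 at -0.11. The 3 comparisons share the control arrays.

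Arrays of a treated group all lay above all control arrays for 3 members after rhPBEF (Egr2, Ier2 and Ier3), beside 9.24% of genes. The same held for 3 members after ventilation (Egr2, Nr4a1 and Nr4a3), beside 9.1% of genes. It held for 7 members after both (all but Egr3 and Nr4a1), beside 12.5% of genes. These counts use the main probe sets. On the lower probe set of Egr3 the combined arrays did lie above all control arrays, and on the second probe set of Nr4a3 they did not. Leaving out ventilation replicate 2 raised the number called after both treatments to 5 (Egr1, Egr2, Nr4a2, Ier2 and Myc). It raised the number after rhPBEF to 1 (Egr2, adjusted p = 0.0407) and left that after ventilation at 0. The share of all genes called in that setting is not given here. The number of all genes called also moved when 1 array was left out, so a gain particular to the members cannot be read from these counts.

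The order of the group means differed between members and rested in part on ventilation replicate 2. For Egr1, Ier2 and Myc it ran from control through rhPBEF and ventilation to both, and for Ier3 from control through ventilation and rhPBEF to both. For Egr2, Nr4a1, Nr4a2 and Nr4a3 it ran from control through rhPBEF and both to ventilation, and for Egr3 from control through both and rhPBEF to ventilation. Neighbours in these orders overlapped, except control and rhPBEF for Egr2 (means of 6.40 and 7.77) and Ier2 (10.86 and 11.45), and rhPBEF and both for Nr4a2 (7.68 and 8.43). Without that array the order changed for 6 members. The ventilation mean fell below the rhPBEF mean for Egr1 (11.50 against 11.90), Egr2 (7.57 against 7.77) and Ier2 (11.16 against 11.45). It fell below the combined mean for Nr4a1 (10.41 against 10.62) and Nr4a2 (8.004 against 8.43), and below the control mean for Ier3. The order of Egr3, Nr4a3 and Myc was the same.

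**Figure D3:**
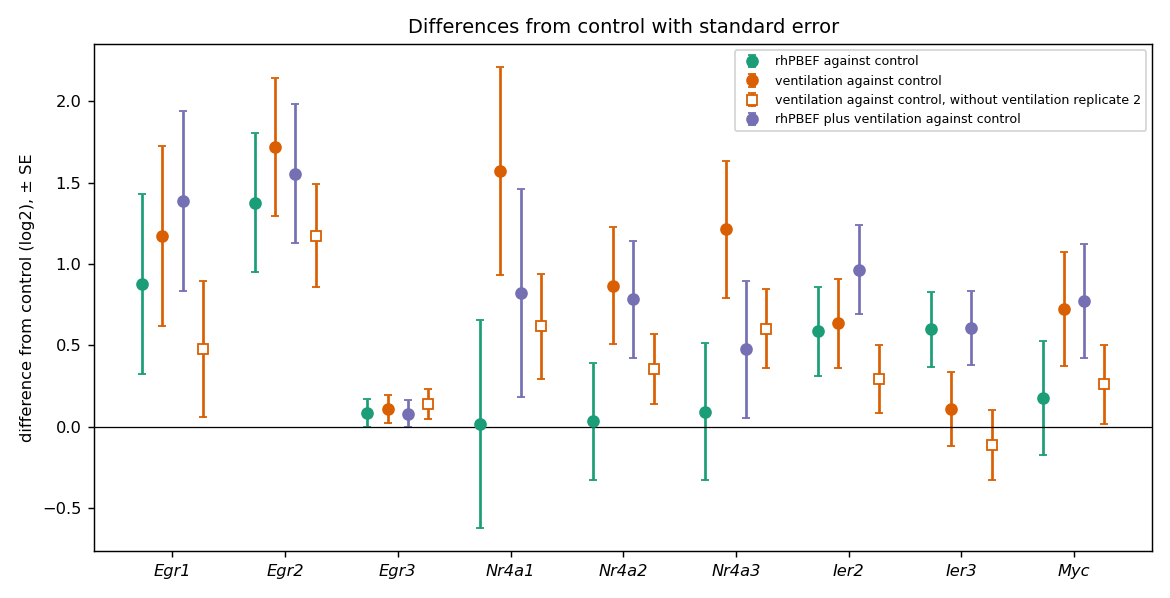
Difference of each of the 9 genes from control on the log2 scale, with its standard error from the limma fit (3 arrays in a group), for rhPBEF, ventilation and both; open squares give ventilation without its replicate 2. The 3 Nr4a genes stand near 0 after rhPBEF (0.02 to 0.09), and the ventilation differences are smaller without replicate 2 (0.62 in place of 1.57 for Nr4a1).

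The rhPBEF and the ventilated groups were also compared directly. The 3 Nr4a genes were lower after rhPBEF than after ventilation, by differences of -1.56 for Nr4a1 (SE 0.64, adjusted p = 0.358), -0.83 for Nr4a2 (SE 0.36, adjusted p = 0.377) and -1.12 for Nr4a3 (SE 0.42, adjusted p = 0.322). None passed, and limma called 0 of 9 members in this comparison, where 0.689% of genes were called; 3 members had an unadjusted p below 0.05, beside 12.5% of genes. For Nr4a1 and Nr4a2 every rhPBEF array was below every ventilated array, beside 9.44% of genes. The lowest ventilated array of Nr4a3 (9.01) lay under the highest rhPBEF array (9.12). Without ventilation replicate 2 the differences were -0.60, -0.32 and -0.51. Ier3 differed the other way, by 0.49 (SE 0.23, adjusted p = 0.414), and by 0.71 without that array (adjusted p = 0.293). The other 5 members stood at -0.29 for Egr1, -0.34 for Egr2, -0.03 for Egr3, -0.05 for Ier2 and -0.55 for Myc, with adjusted p from 0.544 to 0.955. Egr1 (0.40), Egr2 (0.20) and Ier2 (0.29) were above 0 without ventilation replicate 2.

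Adding rhPBEF to ventilation gave 0 called members (0 with an unadjusted p below 0.05, beside 9.98% of genes), where 0.325% of genes were called. Differences ran from -0.75 for Nr4a1 and -0.74 for Nr4a3 to 0.50 for Ier3, with adjusted p from 0.503 to 0.977, and the 2 groups overlapped for every member. Between these stood Egr2 (-0.16), Nr4a2 (-0.08), Egr3 (-0.03), Myc (0.05), Egr1 (0.21) and Ier2 (0.33). The differences were above 0 for 7 members in place of 4, among them Nr4a1 (0.20), without ventilation replicate 2. Adding ventilation to rhPBEF also gave 0 called members (0 unadjusted, beside 3.77% of genes), where 0.00774% were called. The largest differences were 0.80 for Nr4a1 and 0.75 for Nr4a2, and Nr4a2 was the 1 member whose groups did not overlap, beside 5.12% of genes. Myc (0.60), Egr1 (0.51), Nr4a3 (0.38), Ier2 (0.38) and Egr2 (0.18) stood above 0, and Ier3 (0.0077) and Egr3 (-0.0039) stood near it, all with an adjusted p of 0.999.

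The interaction asks whether the response to both treatments departs from the sum of the separate responses. It was called for 0 of 9 members and for 0% of genes. All 9 estimates were below 0, from -0.10 for Ier3 to -1.54 for Egr2 (SE 0.60, adjusted p = 0.998), the 1 member with an unadjusted p below 0.05, beside 2.23% of genes. The others were -0.83 for Nr4a3, -0.77 for Nr4a1, -0.66 for Egr1, -0.25 for Ier2, -0.13 for Myc, -0.12 for Nr4a2 and -0.11 for Egr3. Of all genes 62.6% had an estimate above 0. The 9 members are read from the same arrays and most correlate, so their signs are not independent. Without ventilation replicate 2 the estimate was -0.996 for Egr2 and above 0 for 6 members. Averaged over ventilation status, rhPBEF gave 0 called members, where 4.67% of genes were called; 2 members, Ier2 (0.46) and Ier3 (0.55), had an unadjusted p below 0.05, beside 23.7% of genes. The other differences were 0.61 for Egr2, 0.55 for Egr1, 0.11 for Myc, 0.03 for Egr3, -0.02 for Nr4a2, -0.32 for Nr4a3 and -0.37 for Nr4a1. Without ventilation replicate 2 the members called were 3, Egr2 (0.88, adjusted p = 0.0447), Ier2 (0.63, adjusted p = 0.0366) and Ier3. The share of all genes called without that array is not given here, so this count cannot be set against it. Averaged over rhPBEF status, ventilation gave 0 called members, where 0.549% of genes were called. There 6 members had an unadjusted p below 0.05, beside 16.6% of genes: Egr2 (0.95), Nr4a1 (1.19), Nr4a2 (0.81), Nr4a3 (0.80), Ier2 (0.51) and Myc (0.66), with adjusted p from 0.178 to 0.235. Egr1 stood at 0.84, Ier3 at 0.06 and Egr3 at 0.05.

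The ventilated group held most of the residual variation of 7 members. Of the within-group sum of squares over the 12 arrays, the ventilated group held 83.7% for Nr4a1, 82.5% for Nr4a3, 76.2% for Nr4a2 and 71.0% for Myc. It held 62.4% to 65.1% for Egr1, Egr2 and Ier2, 46.5% for Ier3 and 38.7% for Egr3, against a median of 33.6% over all genes. The gap from ventilation replicate 2 to the next highest array was 2.24 for Nr4a1, 1.55 for Nr4a3, 0.89 for Egr2 and 0.41 for Myc. For Ier2 and Ier3 that array was the second and the fifth highest. Because the fit shares 1 spread over the groups, that array also entered the SE of comparisons without ventilated arrays. For Egr1 after rhPBEF the SE was 0.55 on the 12 arrays and 0.38 without ventilation replicate 2.

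**Figure D4:**
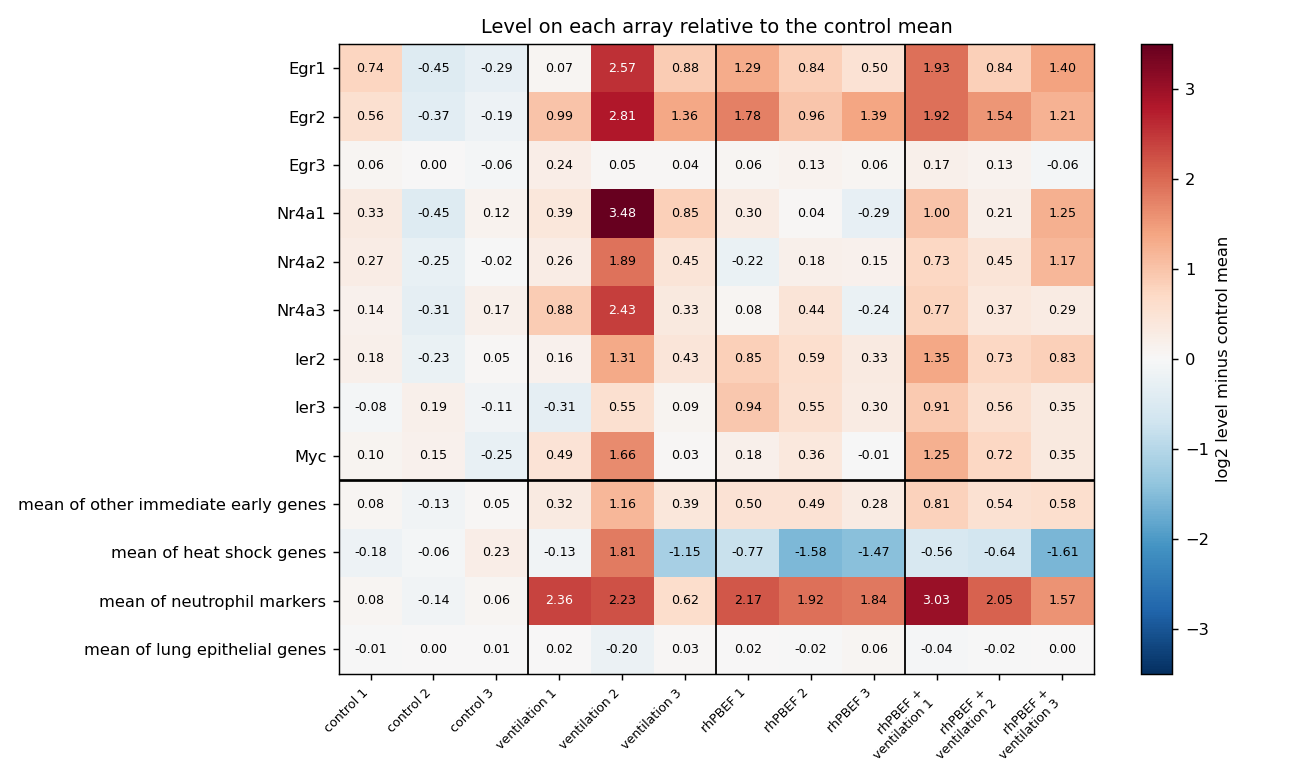
Log2 level on each of the 12 arrays minus the control mean for the 9 genes (rows above the line) and for the means of other immediate early genes, heat shock genes, neutrophil markers and lung epithelial genes; red is higher and blue lower than control, and the value is written in each cell. Ventilation replicate 2 has the highest value for Nr4a1 (3.48) and for the heat shock mean (1.81), and neutrophil markers are above control on all 9 treated arrays (0.62 to 3.03).

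Neutrophil markers moved with the treatments. The mean of 14 tested markers of 17 ranged from -0.14 to 0.08 in control, 0.62 to 2.36 after ventilation, 1.84 to 2.17 after rhPBEF and 1.57 to 3.03 after both. Of these markers 5 rose after rhPBEF, 0 after ventilation and 9 after both, and none fell, with list medians of 2.15, 1.64 and 2.06. Of all genes 1.22%, 0.00774% and 8.79% were called in these comparisons, the shares to set beside each marker list here. The marker mean was 2.36, 2.23 and 0.62 on ventilation replicates 1, 2 and 3. With 1 array left out the counts ran from 1 (any 1 control array, or rhPBEF replicate 1 or 2) to 8 (ventilation replicate 3) after rhPBEF, and from 3 (control replicate 2 or combined replicate 1) to 10 after both. After ventilation the count was 7 without ventilation replicate 3. Macrophage markers (13 of 14 tested) had array means of -0.22 to 0.22 after ventilation, 0.26 to 0.37 after rhPBEF and 0.06 to 0.40 after both, while their list medians were -0.14, -0.04 and -0.09. After rhPBEF 4 of the 13 were above 0 and 9 below: Cd14, which myeloid cells share (3.41), and the scavenger receptor gene Marco (1.93) rose. After both the same pair rose (3.34 and 1.65) and Siglecf fell by 1.03. The number that rose was 1 after rhPBEF without any 1 control array or rhPBEF replicate 1, and 1 after both without control replicate 1 or 2 or combined replicate 1 or 2. The fall of Siglecf was lost without any 1 control array or combined replicate 1 or 2. Endothelial markers (16 tested) had array means of -0.41 to -0.31 after ventilation, -0.27 to -0.15 after rhPBEF and -0.48 to -0.23 after both, with medians of -0.25, -0.15 and -0.27. After both 5 fell (Eng, Ramp2, Sox17, Sox18 and Egfl7) and none rose, while 0 passed after rhPBEF or ventilation alone. That count was 2 without any 1 control array or combined replicate 1 and 8 without combined replicate 3. The marker counts with 1 array left out have no matching share of all genes beside them. The part of these cells in the members' levels was not tested.

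The levels of 8 members, all but Egr3, were positively correlated across arrays. Over the 12 arrays, which share their groups, Pearson's r was 0.95 for Egr1 with Ier2, 0.93 for Nr4a1 with Nr4a2, 0.91 for Nr4a1 with Nr4a3 and 0.90 for Egr1 with Egr2. Over all 36 pairs the median was 0.70, and it was 0.55 on the 11 arrays without ventilation replicate 2. Nr4a1 with Nr4a3 dropped to 0.61 and Egr1 with Ier2 stayed at 0.95. Ier3 followed Ier2 (0.77) and hardly the Nr4a genes (0.16 to 0.23). Egr3 on its main probe set followed none of the others above 0.42 over the 12 arrays. Its r was 0.67 with Nr4a3 (from 0.27) and 0.65 with Myc (from 0.42) on the 11 arrays.

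The genes whose pattern was most like a member's included other immediate early genes. Fos was nearest to Egr1 (r = 0.94) and to Egr2 (0.95), and Junb to Ier2 (0.96); both encode subunits of the AP-1 factor. Cdr2 was nearest to Nr4a1 (0.97), with Spry2, a feedback inhibitor of growth factor signalling, second (0.95). Mirg was nearest to Nr4a2 (0.93), Thoc6 to Nr4a3 (0.94), Zfp703 to Ier3 (0.95), Mex3a to Egr3 (0.91) and Zc3h15 to Myc (0.98). The likeness fell without ventilation replicate 2 to 0.87 for Cdr2 and 0.71 for Thoc6, and stayed at 0.97 for Zfp703 and Zc3h15. By mean correlation with the 9 members, Trib1, a pseudokinase gene, came first (0.78), followed by Slc25a25, Has1, Rnd3 and Scyl2 (0.77 each). These are correlations over 12 arrays and are given as a description.

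Other immediate early genes were followed through a list of 50, of which 48 were tested. The list was chosen with earlier results of these data known, so its share called beside that of all genes is a description only. After rhPBEF 6 rose and 0 fell (12.5% of the list, beside 1.22% of all genes), with a list median of 0.28. Socs3, a feedback inhibitor of cytokine signalling, rose 6.28-fold, Tnfaip3, which restrains NF-kB, 5.20-fold, and the kinase gene Pim1 2.88-fold. The other 3 were Zfp36 (1.13), Bhlhe40 (1.10) and Cebpd (1.03), and Junb stood 1.42 above control without passing (adjusted p = 0.113). After ventilation 0 of 48 were called and the list median was 0.65, with Socs3 at 2.28 (adjusted p = 0.0848), Fos at 1.35, Gadd45g at 1.32 and Fosb at 1.29. After both 12 rose and 1 fell (27.1%, beside 8.79%), with a median of 0.54: Socs3 rose 8.37-fold, Tnfaip3 6.43-fold, Junb 3.42-fold and Pim1 2.88-fold, and Klf2, a flow-responsive endothelial factor, fell by 1.18 on the log2 scale. A further 8 rose: Fosl2 (1.42), Gadd45g (1.38), Cebpd (1.35), Zfp36 (1.32), Bhlhe40 (1.24), Dusp2 (0.98), Cebpb (0.80) and Nfkbia (0.53). The number that rose after rhPBEF was 2 without control replicate 2, rhPBEF replicate 1 or rhPBEF replicate 2, 3 without control replicate 3, 4 without control replicate 1 and 9 without ventilation replicate 2. After both it was 6 without combined replicate 1 or 2, 7 without control replicate 1 or 2, 8 without control replicate 3 and 23 without ventilation replicate 2. The number of all genes called also moved when 1 array was left out. A change particular to this list cannot be read from these counts.

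Of the messages of the factors that switch these genes on, 1 passed the test. Of 14 regulators, which include Srf, the Elk factors, Creb1 and the CREB co-activators, 0 passed after rhPBEF, 0 after ventilation and 1 after both (7.14% of the list, under the 8.79% of all genes). That gene was Mrtfa, an actin-controlled co-activator of serum response factor, at 0.47 (SE 0.11, adjusted p = 0.0295), and it was lost from the count without any 1 of the control arrays or without combined replicate 1 or 2. Crem, a cyclic AMP-responsive relative of CREB, stood 0.25, 1.01 and 0.73 above control after rhPBEF, ventilation and both (adjusted p = 0.698, 0.188 and 0.139), and Srf stood 0.79 above control after ventilation (adjusted p = 0.251). Crtc2 stood 0.35, 0.22 and 0.49 above control (adjusted p = 0.242, 0.476 and 0.0604). Elk3 stood at -0.26 after rhPBEF and -0.17 after ventilation, Mrtfb at -0.30 after rhPBEF and Mef2c at -0.32 after both, none past the threshold. The list medians were 0.00, 0.02 and -0.01.

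Partners and antagonists of the EGR, NR4A and MYC proteins numbered 14, of which 13 were tested. The list medians were -0.09, -0.0075 and -0.08. After rhPBEF and after ventilation 0 passed, and after both 1 fell (7.69% of the list, under the 8.79% of all genes). It was Mxd4, an antagonist of MYC (-0.46, SE 0.11, adjusted p = 0.0329), which stood at -0.34 after rhPBEF and -0.37 after ventilation and was lost without any 1 control array or combined replicate 1 or 2. Mxd1, a second MYC antagonist, stood 0.63, 0.97 and 0.91 above control and Mxi1, another, at -0.47, -0.32 and -0.68, none past the threshold. Nab2, which binds and represses EGR proteins, stood at -0.41 after rhPBEF and -0.47 after both, and Mnt at -0.31 after ventilation. Of 5 further family members, 1 passed after rhPBEF and after both (20% of the list each time, beside 1.22% and 8.79% of all genes). Each share rests on 1 gene, Mycl, a relative of Myc. It fell after rhPBEF (-0.74, adjusted p = 0.0232) and after both (-0.94, SE 0.13, adjusted p = 0.00504), while it stood at -0.44 after ventilation (adjusted p = 0.192). The fall after rhPBEF was lost without any 1 control array or rhPBEF replicate 1 or 2. Egr4, Ier5, Ier5l and Mycn did not pass in any comparison with control, with differences between -0.10 (Mycn after rhPBEF) and 0.46 (Ier5 after ventilation), and the medians of the 5 were -0.05, 0.06 and 0.0064.

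Genes reported as targets of the members were listed from general knowledge and need not be targets in lung. The EGR1, NR4A and MYC target lists were chosen with earlier results of these data known. Their shares called beside those of all genes are a description only. Of 20 reported EGR1 targets 17 were tested: 4 rose and 1 fell after rhPBEF, 0 passed after ventilation and 7 rose after both (29.4%, 0% and 41.2% of the list, beside 1.22%, 0.00774% and 8.79% of all genes), with list medians of 0.09, 0.13 and 0.17. The chemokine gene Cxcl2 rose by a log2 difference of 7.43 after rhPBEF and 7.28 after both (SE 0.52 each), and Tnf (1.07 and 0.72), Icam1 (1.23 and 1.24) and Cd44 (0.90 and 1.08) rose in both groups as well. F3, the gene of tissue factor, fell after rhPBEF (-0.77, adjusted p = 0.0242). Il1b rose after both (3.29, adjusted p = 0.0253), as did Ccl2 (2.52, adjusted p = 0.0253) and the prostaglandin synthase gene Ptges (1.37, adjusted p = 0.0407). After rhPBEF alone these stood at 3.24, 2.39 and 1.38, not past the threshold. After ventilation the largest differences were Cxcl2 (2.76, adjusted p = 0.0909), Il1b (2.38), Ccl2 (0.86) and F3 (0.46). The count after both was 3 without any 1 control array or without combined replicate 1 or 2, and that after rhPBEF was 2 without control replicate 1 or rhPBEF replicate 2 and 7 without combined replicate 3. These counts with 1 array left out have no matching share of all genes beside them.

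Of 12 reported NR4A targets 0 passed after rhPBEF, 0 after ventilation and 5 rose after both (41.7% of the list, beside 8.79% of all genes), with medians of 0.20, 0.15 and 0.33. These were Pfkfb3, a regulator of glycolysis (1.40, adjusted p = 0.0244), Fgl2 (1.26, adjusted p = 0.00745), Ikzf1 (0.62, adjusted p = 0.0477), Nfkbia (0.53, adjusted p = 0.0441) and Irs2 (0.51, adjusted p = 0.0380). After rhPBEF Fgl2 stood at 0.90, Pfkfb3 at 0.66, Ikzf1 at 0.51 and Nfkbia at 0.48, and after ventilation Fgl2 at 0.94, Ikzf1 at 0.48, Pfkfb3 at 0.31 and Irs2 at 0.30, none past the threshold. Nfkbia also belongs to the list of immediate early genes. The count was 1 without control replicate 1 or 2 or combined replicate 1 or 2, and 2 without control replicate 3 or rhPBEF replicate 1. Of 24 reported MYC targets 23 were tested, and 0, 0 and 2 rose after rhPBEF, ventilation and both (8.7% of the list after both, near the 8.79% of all genes), with medians of 0.04, 0.10 and 0.19. Odc1, the first enzyme of polyamine synthesis, rose after both (0.89, adjusted p = 0.0316), as did Ldha (0.55). They stood at 0.48 and 0.45 after rhPBEF. Gnl3 stood at 0.72 after both, and after ventilation Nop58 stood at 0.63, Gnl3 at 0.46, Ddx21 at 0.41 and Odc1 at 0.34. The count of 2 was 0 without any 1 control array or combined replicate 1 or 2, 3 without ventilation replicate 2 and 10 without combined replicate 3. The mitochondrial chaperone genes Hspe1 and Hspd1, also on this list, stood at -1.496 and -1.14 after rhPBEF and at -1.38 and -0.82 after both, not past the threshold. The NR4A and MYC target counts with 1 array left out have no matching share of all genes beside them.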

How the data were processed

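The deposited table holds log2 values, 1 for each of 45101 probe sets on each of 12 arrays. Per the submitters' processing notes the authors used MAS5 and GCRMA. Neither the role of each tool nor the scaling of the table is stated in the labels, and it was used as deposited. It has no detection calls, so a low level cannot be told from background, and the number of arrays limits the precision.

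Groups came from the sample titles and treatment labels. Affymetrix control probe sets (64) were dropped. Probe sets with exactly 1 gene symbol (34945, against 932 with several and 9160 with none) and a 12-array mean above the 40th percentile (6.42) were kept, with the highest probe set for each gene, giving 12921 genes. Group means over the 4 groups were fitted by lmFit and moderated by eBayes (limma 3.58.1, R 4.3.3; residual df 8, prior df 2.99) and contrasted in 9 comparisons. P-values were adjusted by Benjamini-Hochberg over all genes in each comparison, with a threshold of 0.05. The fit was tested on simulated data, with normal values and equal spread in all 4 groups. That test does not cover the larger spread of the ventilated group described above.

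The 9 members and all gene lists were chosen with earlier results of these data known. All 9 members are reported in every comparison. From each list outside the cell type markers, counts and medians are given for the comparisons with control, with the 4 tested genes of largest difference and the genes past the threshold (within the 5 further family members, by their range). Genes past the threshold outside those 4, and the marker genes named, were chosen after their values were seen. Nearest genes were taken by Pearson's r, leaving out unnamed gene models. After group means were removed, same-numbered arrays of different groups correlated between -0.19 and 0.45 in 18 pairs, 7 above 0.1. Differently numbered arrays were not compared, so these values cannot decide whether the numbers pair samples. The main fit used no replicate block. Alternatives changed the filter, normalization, variance model, weights, probe set choice, replicate block, groups fitted and arrays left out.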

Additional observations from a re-analysis of the deposited data

How the results depend on the processing

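Limits. With 3 arrays in a group, single arrays decide several counts, and the number of all genes called moved too when 1 array was left out: between 44 and 358 for rhPBEF against control, 152 and 2498 for both against control, and 6 and 555 for ventilation averaged over rhPBEF status. The table has no detection calls, so the depth of low probe sets is unknown. Array weights did not converge: combined replicate 2 was given a weight of 22.7 and ventilation replicate 2 a weight of 0.165, and 7579 genes were called after both. The cause was not tested for any change below.

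The number of members past the threshold changed as follows. With array weights it was 2 for rhPBEF against control, 2 for ventilation against control, 8 for both against control, 1 for both against ventilation, 1 for rhPBEF against ventilation, 3 for rhPBEF averaged over ventilation status and 3 for ventilation averaged over rhPBEF status. With only the 2 groups compared in the fit it was 1 for rhPBEF against control (Egr2, adjusted p = 0.0384, with 636 genes called) and 2 for both against control. For both against control, where the reported number is 1, it was 0 with no filter on low values, 0 with every probe set tested, 2 with a variance trend (Ier2 added, adjusted p = 0.0499) and 3 without the 3 arrays that stand apart, an alternative chosen after seeing the data. With the replicate block it was 0 for both against control (Egr2, adjusted p = 0.0569, 1263 genes called), and the block changed no other count of members. With a filter at the 60th percentile it stayed at 1 for both against control, but 7 members were tested, without Egr2 and Egr3, and the member called was Ier2 (adjusted p = 0.0459). With 1 array left out, the number ran from 0 to 1 for rhPBEF against control, 0 to 5 for both against control and 0 to 3 for rhPBEF averaged over ventilation status. For the other 6 comparisons it stayed at 0. With no filter on low values 40 genes were called for ventilation averaged over rhPBEF status, in place of 71. With array weights the number of all genes called after both rose as well. Where no number of genes stands beside a count of members, a gain particular to the members cannot be read from it.

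No called value changed sign. Of the values that did not pass, some did. With array weights the value was -0.26 for Ier3 in ventilation against control, 0.40 for Egr2 and 0.089 for Nr4a2 in both against ventilation, and -0.052 for Egr1, 0.045 for Egr3 and -0.071 for Ier3 in both against rhPBEF. It was 0.59 for Egr1, 0.27 for Egr2 and 0.35 for Ier2 in rhPBEF against ventilation, and 0.043 for Nr4a2, 0.19 for Ier3 and 0.14 for Myc in the interaction. Averaged values were -0.0010 for Egr3 and 0.067 for Nr4a2 (rhPBEF) and -0.17 for Ier3 (ventilation). With the mean of a gene's probe sets Nr4a2 was 0.0094 in both against ventilation and 0.016 in rhPBEF averaged over ventilation status, and Egr3 was 0.49 in both against rhPBEF. With the lower probe set Egr3 was 0.99 there. Ier3 in both against rhPBEF was -0.0014 with arrays centred on their medians and -0.0073 with quantile normalization.

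With 1 array left out, differences ran for rhPBEF against control from -0.21 to 0.18 for Nr4a1, -0.089 to 0.17 for Nr4a2 and -0.081 to 0.26 for Nr4a3, and for ventilation against control from -0.11 to 0.32 for Ier3. For both against ventilation they ran from -0.34 to 0.91 for Egr1, -0.53 to 0.38 for Egr2, -0.074 to 0.038 for Egr3, -1.35 to 0.20 for Nr4a1, -0.39 to 0.43 for Nr4a2 and -0.30 to 0.51 for Myc. For both against rhPBEF they ran from -0.029 to 0.38 for Egr2, -0.048 to 0.064 for Egr3 and -0.15 to 0.18 for Ier3. For rhPBEF against ventilation they ran from -0.85 to 0.40 for Egr1, -0.71 to 0.20 for Egr2, -0.062 to 0.038 for Egr3 and -0.29 to 0.29 for Ier2. For the interaction they ran from -1.22 to 0.033 for Egr1, -1.36 to 0.19 for Nr4a1, -0.42 to 0.39 for Nr4a2, -0.49 to 0.086 for Ier2, -0.31 to 0.12 for Ier3 and -0.48 to 0.34 for Myc. For rhPBEF averaged over ventilation status they ran from -0.66 to 0.11 for Nr4a1, -0.18 to 0.23 for Nr4a2 and -0.061 to 0.35 for Myc, and for ventilation averaged over rhPBEF status from -0.052 to 0.16 for Ier3.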
